A study of Mus musculus with 6 samples.

Results

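The genes of MHC class II and antigen presentation were described in mouse ventricles in which the kinase Akt was kept active. The 10 listed genes were H2-Aa, H2-Ab1, H2-Eb1, Cd74, H2-DMa, H2-DMb1, Ciita, B2m, Tap1 and Tapbp. A gene counted as measured when a probe set carried its symbol alone in the platform annotation, and 9 of the 10 did, out of 18193 genes in all. H2-DMb1 had 2 probe sets, both shared with another gene symbol, and was therefore given no value. The value of a gene is that of whichever probe set had the highest mean over the 6 arrays. The rule uses no difference between the groups.

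Expression was measured on short-oligonucleotide arrays of ventricular tissue, from mice aged 8 weeks. The caAkt mice carried a transgene that is expressed constitutively and only in the heart and encodes an activated Akt (3 arrays), and the comparison group was wild type (WT, 3 arrays). The labels give no promoter, founder line, strain or sex, and do not say whether each array came from a separate heart. The p-values therefore measure the spread between these arrays, which may be technical. Sequences of the H2 genes differ between mouse strains by H2 haplotype. Without the strain, how well the probes for H2-Aa, H2-Ab1, H2-Eb1, H2-Ea, H2-K1 and H2-D1 match these mice, and whether both groups share a haplotype, is not known.

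Akt1 stood at 15.16, 15.10 and 15.08 in the caAkt arrays, against 9.79, 9.79 and 10.18 in the WT arrays (log2, brightest probe set). The other probe sets of Akt1 did not show this rise. Their log2 fold changes (caAkt minus WT) were -0.29, called lower (limma adjusted p = 0.0281 among all probe sets), and -0.21 and 0.08, not called. The 7 cardiomyocyte markers, among them Myh6 and Tnnt2, lay between 12.47 and 15.45 on every array, the signal of heart muscle. Array medians lay between 6.77 and 6.80. Eif2s3y, Kdm5d and Uty, which are Y-linked, stood at 3.87 to 4.57 on arrays where Xist stood at 11.36 to 11.47, which gives a guide to the signal of genes that are not expressed.

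MHC class II molecules carry peptides from taken-up proteins to the surface of macrophages, dendritic cells and B cells, where CD4 T cells read them. Their α and β chains assemble in the endoplasmic reticulum with the invariant chain Cd74, which blocks the peptide groove until endosomal proteases such as cathepsin S degrade it, and the H2-DM dimer then exchanges its last fragment for a peptide. Transcription of these genes depends on the coactivator Ciita, which has no DNA-binding activity of its own and is recruited by factors bound at the X and Y boxes of their promoters. MHC class I molecules, found on nearly all nucleated cells, consist of a heavy chain and B2m and receive peptides that the proteasome makes and the Tap1 and Tap2 transporter imports, with the help of the tapasin Tapbp. In the heart, macrophages are the best known carriers of class II.

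The promoters are shown because X and Y boxes are known from class II promoters. Not every window given here held matches to both. Of the 10 genes, 7 had a promoter in the RefSeq-derived table (GRCm38.p6), and H2-Ab1, Cd74 and Ciita had no entry used here. The 250 bases before the transcription start are given for the class II chains H2-Aa (chr17:34287824-34288073, minus strand) and H2-Eb1 (chr17:34305617-34305866, plus strand), and for the class I genes B2m (chr2:122147437-122147686, plus strand) and Tap1 (chr17:34187306-34187555, plus strand). Each is written along its gene from 5′ to 3′. Capitals mark matches on either strand to GCAAC (the core of the X box), to TGACG or TGATG (forms of the X2 box) and to GATTGG (the Y box, an inverted CCAAT). The letters were chosen after the sequences had been read.
H2-Aa: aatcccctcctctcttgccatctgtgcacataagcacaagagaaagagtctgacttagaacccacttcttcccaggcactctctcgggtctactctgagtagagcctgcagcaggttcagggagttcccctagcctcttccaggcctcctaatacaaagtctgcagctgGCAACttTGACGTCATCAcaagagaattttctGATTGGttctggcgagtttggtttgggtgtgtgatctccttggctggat
H2-Eb1: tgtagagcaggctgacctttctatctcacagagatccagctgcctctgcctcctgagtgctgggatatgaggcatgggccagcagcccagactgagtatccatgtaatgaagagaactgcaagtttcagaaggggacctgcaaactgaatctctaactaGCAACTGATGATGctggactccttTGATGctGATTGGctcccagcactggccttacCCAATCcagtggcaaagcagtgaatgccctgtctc
B2m: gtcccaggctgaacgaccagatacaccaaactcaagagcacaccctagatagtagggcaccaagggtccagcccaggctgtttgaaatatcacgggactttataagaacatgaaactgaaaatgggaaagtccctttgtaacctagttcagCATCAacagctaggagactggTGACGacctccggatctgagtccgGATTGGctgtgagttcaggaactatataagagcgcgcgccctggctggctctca
Tap1: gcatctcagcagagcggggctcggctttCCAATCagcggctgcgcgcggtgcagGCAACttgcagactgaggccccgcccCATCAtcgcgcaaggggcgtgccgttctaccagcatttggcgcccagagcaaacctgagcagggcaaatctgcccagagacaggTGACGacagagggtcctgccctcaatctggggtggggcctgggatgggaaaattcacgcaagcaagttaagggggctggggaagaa

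In H2-Aa the GCAAC lay 81 to 77 bases and the GATTGG 49 to 44 bases upstream of the start, with 27 bases between them that hold overlapping matches to TGACG, its reverse complement and the reverse complement of TGATG. In H2-Eb1 the GCAAC at 91 to 87 and the GATTGG at 60 to 55 were 26 bases apart, with 3 TGATG matches between them, of which 2 overlap, and a reversed GATTGG lay at 35 to 30. B2m held TGACG 78 to 74 bases and GATTGG 54 to 49 bases upstream, a reversed TGATG at 99 to 95, and no GCAAC in this window. Tap1 held all of these motifs, spread from 222 to 82 bases upstream and with the GATTGG in the opposite orientation. Over 32817 windows of the same length, 29.9% held GCAAC, 17.7% TGACG, 34.5% TGATG and 14.5% GATTGG, each on either strand. A GCAAC followed by GATTGG on the same strand within 30 bases occurred in 144 windows (0.439%), among the listed genes in H2-Aa and H2-Eb1. H2-Eb2, H2-Oa and H2-Ob, other genes of the class II region, also had it. The windows of the class II genes H2-DMa and H2-DMb1 did not, nor did those of B2m, Tap1 and Tapbp. The limit of 30 bases lies just above the gaps of 27 and 26 bases in H2-Aa and H2-Eb1. The share of 0.439% therefore does not test whether the pair is unusual in them. All these matches describe the letters and show neither binding nor use.

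The class II chains H2-Aa, H2-Ab1 and H2-Eb1, the invariant chain Cd74 and H2-DMa were higher in caAkt hearts. H2-Aa, H2-Ab1 and Cd74 were 2.36-fold to 2.66-fold higher, whereas the class II transactivator Ciita was not called. The class I partners B2m and Tapbp rose by a smaller amount, and Tap1 was not called. H2-Eb1 was near the threshold. The class II chains H2-Ea and H2-Eb2, outside the 10 listed genes, were not called at the probe sets used. Of the 9 measured genes, 7 were higher and 0 lower at an adjusted p under 0.05 (limma, Benjamini-Hochberg adjustment over 18193 genes). At an unadjusted p under 0.05 the counts were also 7 and 0. Over all genes, 28.5% were called, 16.1% as higher and 12.4% as lower in caAkt. The values of the groups did not overlap for 7 of the 9 genes, all of them higher in caAkt, against 42.4% of all genes and 21.4% that were higher without overlap. The median log2 fold change, given as caAkt minus WT, was 0.36 for the 9 genes and -0.04 for all genes. In bulk tissue, more cells of a type and more RNA per cell cannot be told apart.

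**Figure D1:**
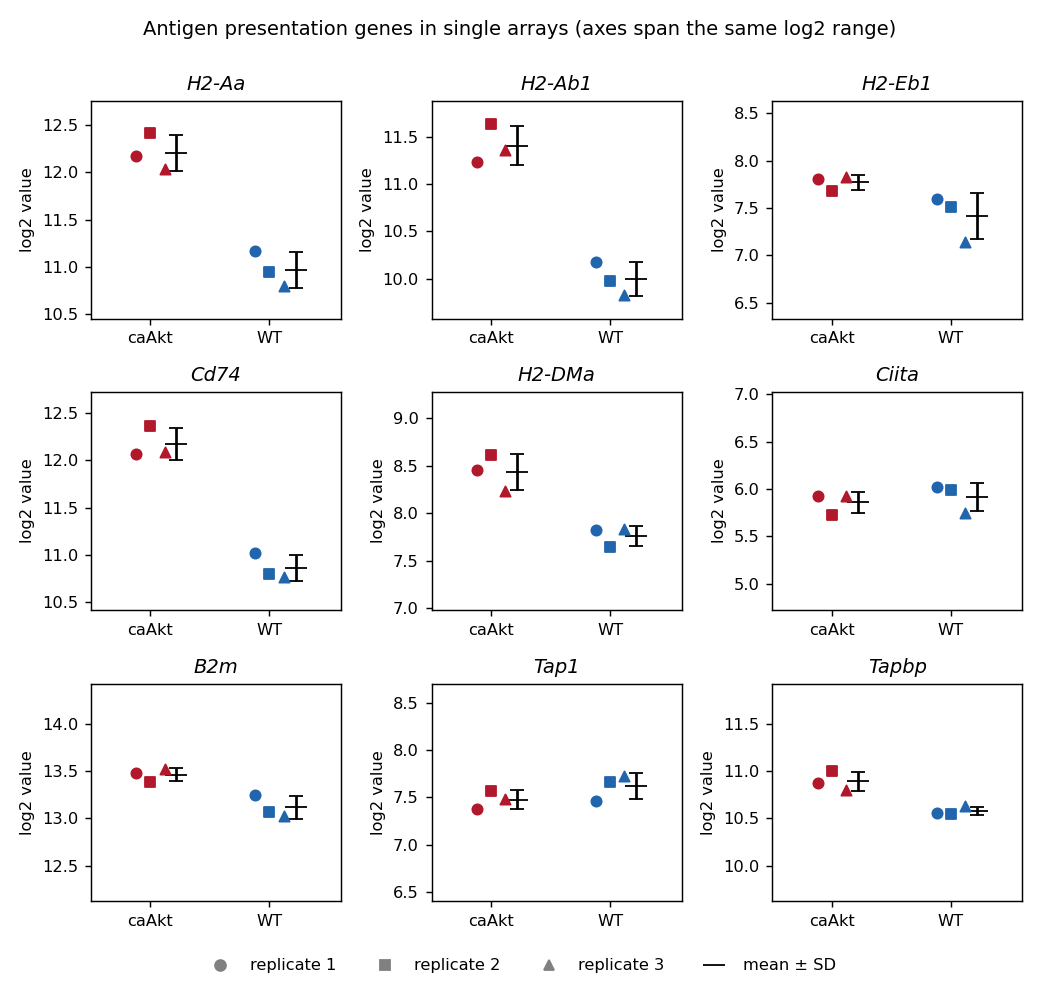
The log2 value of each measured gene is plotted by array, with caAkt on the left and WT on the right, symbols for replicates, and bars for the mean and SD of 3 arrays. Every axis spans the same log2 range, and H2-Aa, H2-Ab1 and Cd74 show the widest gap between genotypes, while Ciita and Tap1 overlap.

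H2-Aa encodes the α chain of the class II molecule H2-A. It stood at 12.17, 12.41 and 12.04 (log2) in the caAkt arrays, against 11.16, 10.94 and 10.80 in the WT arrays. The lowest caAkt array lay well above the highest WT array. Its log2 fold change was 1.24 ± 0.12 (SE, n = 3 arrays each; limma adjusted p = 7.62e-05), or 2.36-fold.

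H2-Ab1 encodes the β chain that pairs with it. Its values were 11.23, 11.63 and 11.36 in the caAkt arrays, against 10.18, 9.98 and 9.83 in the WT arrays, again without overlap. H2-Ab1 rose by 1.41 ± 0.12 on the log2 scale (SE, limma adjusted p = 4.08e-05), or 2.66-fold. Cd74, the invariant chain that escorts class II and is also a receptor for the cytokine MIF, stood at 12.06, 12.37 and 12.09 in caAkt hearts, against 11.02, 10.80 and 10.77 in WT hearts. It rose by 1.31 ± 0.10 on the log2 scale (SE, limma adjusted p = 2.49e-05), or 2.47-fold. Within single arrays, Cd74 minus H2-Aa overlapped between genotypes (-0.11 to 0.05 in caAkt, -0.14 to -0.02 in WT, log2). H2-Ab1 minus H2-Aa did not overlap (-0.94 to -0.68 in caAkt, -0.98 to -0.97 in WT). These and the within-array differences given further on are descriptions and were not tested.

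H2-Eb1, the β chain of the second class II molecule, H2-E, changed less. It stood at 7.81, 7.68 and 7.82 in caAkt hearts, against 7.59, 7.51 and 7.14 in WT hearts, where replicate 3 was the lowest. The groups did not overlap, but the highest WT array lay close to the lowest caAkt array. The log2 fold change was 0.36 ± 0.12 (SE, limma adjusted p = 0.0468), or 1.28-fold. It was not called when any array other than WT replicate 1 was left out (log2 fold change 0.22 to 0.41, limma adjusted p = 0.0692 to 0.133). Without WT replicate 3 the log2 fold change was 0.22. Within arrays, H2-Ab1 minus H2-Eb1 was 3.42, 3.96 and 3.53 in caAkt, against 2.59, 2.47 and 2.69 in WT (log2), so these probe sets of the β chains changed by unequal amounts.

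Most of these genes were read by several probe sets, which are fitted here together with all 45037 probe sets. A suffix _s_at or _x_at in the name of a probe set marks probes shared by related transcripts or prone to cross-hybridise, and _a_at marks probes shared by transcripts of a gene. All 8 probe sets of H2-Aa, H2-Ab1 and Cd74 carry such a suffix, and class II genes have close relatives, so their signals may mix. The 4 probe sets of H2-Aa were all called higher, with log2 fold changes of 1.24, 1.31, 0.67 and 0.36. The last of these stood at 3.96 to 4.12 in caAkt and 3.66 to 3.68 in WT, a level within or below the range of the Y-linked genes. The 3 probe sets of H2-Ab1 gave 1.41, 1.30 and 1.35 and were all called. Over the 22 probe sets of the measured genes, 12 were higher and 0 lower, against 20.0% called and 11.3% higher among all probe sets.

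**Figure D2:**
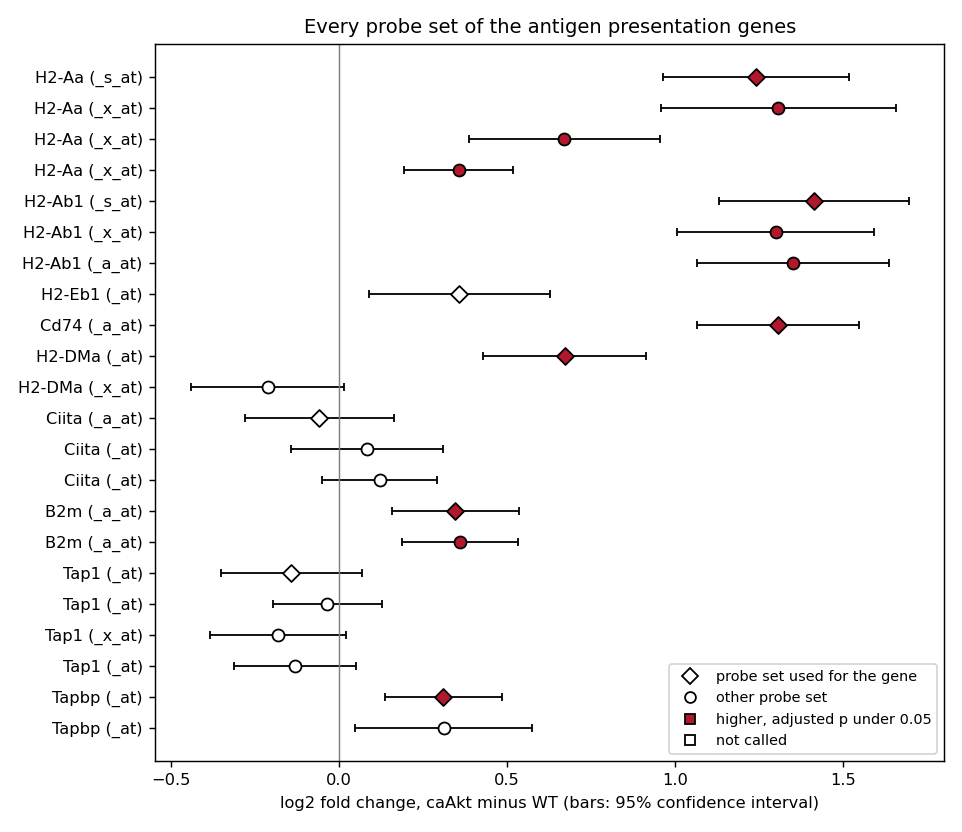
The log2 fold change (caAkt minus WT) with its 95% confidence interval is plotted for each of the 22 probe sets, from the fit over all probe sets. Filled symbols were called higher at an adjusted p under 0.05, diamonds represent the gene, and H2-Eb1 is open because its adjusted p in this fit was 0.0665.

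H2-DMa, the α chain of the peptide editor H2-DM, rose at its brighter probe set. The values were 8.45, 8.62 and 8.23 in caAkt hearts, against 7.82, 7.64 and 7.83 in WT hearts, with no overlap. H2-DMa thus had a log2 fold change of 0.67 ± 0.10 (SE, limma adjusted p = 0.00128), or 1.59-fold. A dimmer probe set of the _x_at kind did not follow. It stood at 6.42, 6.49 and 6.74 in caAkt, against 6.86, 6.75 and 6.67 in WT, a log2 fold change of -0.21 ± 0.10 that was not called (limma adjusted p = 0.184 among all probe sets). The mean of both probe sets gave 0.23. Within arrays, Cd74 minus H2-DMa was 3.61, 3.75 and 3.86 in caAkt, against 3.21, 3.16 and 2.94 in WT (log2), without overlap. H2-DMb2, which encodes a β chain of H2-DM, stood at 5.69 to 5.77 in caAkt and 5.52 to 5.80 in WT. Its 3 probe sets were at 0.05, -0.03 and -0.06, none of them called. The brightest repeated 5.69 on caAkt replicates 1 and 2 and WT replicate 1, and the dimmest repeated 4.35 on every caAkt array. Such repeated values limit what the lack of a call can show.

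Ciita, the coactivator on which class II transcription depends, was not called. Its values were 5.92, 5.73 and 5.92 in caAkt hearts, against 6.02, 5.99 and 5.74 in WT hearts, and the groups overlapped. The value repeated on caAkt replicates 1 and 3, which limits what the lack of a call can show. The log2 fold change was -0.06 ± 0.10 (SE, limma adjusted p = 0.682), with a 95% confidence interval of -0.27 to 0.16. The interval lies below the log2 fold changes of H2-Aa, H2-Ab1 and Cd74, although the signal was low and a low signal can understate a change. Its other probe sets gave 0.08 (limma adjusted p = 0.607) and 0.12 (limma adjusted p = 0.309). Within arrays, Cd74 minus Ciita was 6.14, 6.64 and 6.17 in caAkt, against 5.01, 4.82 and 5.03 in WT.

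The factors that bind the class II promoter boxes changed by small amounts and in both directions. Of 7 such genes, 2 were called higher and 1 lower, against 16.1% and 12.4% of all genes. Their median log2 fold change was 0.07. After a repeated quantile normalization 0 were higher and 2 lower, and with each array centred on its median 2 were higher and 0 lower. Nfyb, a subunit of the Y-box factor NF-Y, rose by 0.35 ± 0.10 (SE, limma adjusted p = 0.0269), and Rfx5, the DNA-binding subunit of the X-box complex, by 0.26 ± 0.08 (limma adjusted p = 0.0392). Nfyc, another NF-Y subunit, fell by 0.23 ± 0.07 (limma adjusted p = 0.0360). These genes were near the threshold, and each call was lost in 5 of the 6 fits that leave out an array (limma adjusted p up to 0.105). In those fits their log2 fold changes kept their direction, at 0.29 to 0.46 for Nfyb, 0.18 to 0.30 for Rfx5 and -0.28 to -0.21 for Nfyc. Leaving out an array left 0 or 1 gene of the list called higher and 0 or 1 lower. The other subunits Rfxap (-0.22), Rfxank (-0.10) and Nfya (0.17), and the X2-box factor Creb1 (0.07), were not called.

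Among further class II chains and editors, 1 of 5 measured genes was called, against 28.5% of all genes. H2-Ob, part of the H2-DM inhibitor H2-DO, had a log2 fold change of 0.32 (limma adjusted p = 0.0362) at 4.05 to 4.22 in caAkt and 3.64 to 3.99 in WT, within or below the range of the Y-linked genes. Of the fits lacking an array, the call held only in the one without WT replicate 2 (log2 fold change 0.23 to 0.41, limma adjusted p up to 0.122). H2-Oa (0.06), H2-Eb2 (-0.12) and H2-Ea (0.05), the α chain of H2-E, were not called. H2-Ea had a dimmer _s_at probe set that was higher (0.46 ± 0.11, limma adjusted p = 0.0147 among all probe sets).

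The endosomal genes that prepare class II for peptides rose together. Of 8 genes for proteases, their inhibitor and the thiol reductase, 7 were higher and 0 lower, against 16.1% and 12.4% of all genes. Without single arrays 7 to 8 were higher. The median log2 fold change of the list was 0.67 against -0.04 for all genes. Ctss, the cathepsin S that removes the invariant chain in macrophages and dendritic cells, stood at 12.294, 12.122 and 11.978 in caAkt hearts, against 10.003, 9.742 and 9.586 in WT hearts. Its log2 fold change of 2.35 ± 0.12 (SE, limma adjusted p = 2.30e-06), or 5.11-fold, was the widest of the pathway genes listed here. Cst3, the secreted cathepsin inhibitor cystatin C, rose by 0.95 ± 0.07 (limma adjusted p = 2.14e-05), and Ctsb, a cathepsin of most cell types, by 0.77 ± 0.08 (limma adjusted p = 8.60e-05). Ifi30, the reductase that opens disulfide bonds of antigens, rose by 0.70, Ctsh by 0.64, the asparaginyl protease Lgmn by 0.61 and Ctsd by 0.59. Ctsl, cathepsin L, had a log2 fold change of 0.25 (limma adjusted p = 0.0515) and was called without WT replicate 1. Ifi30, Ctsh, Lgmn, Ctsd and Ctsl were named after their values had been seen.

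The membrane ligases that send class II for degradation rose as well. Marchf1, which ubiquitinates class II in dendritic cells and B cells, stood at 5.82, 5.74 and 5.82 in caAkt hearts, against 5.38, 5.28 and 5.38 in WT hearts, a log2 fold change of 0.45 ± 0.07 (SE, limma adjusted p = 0.00112). Marchf8, its more widely expressed relative, rose by 0.56 ± 0.09 (limma adjusted p = 0.00111). Both kept their calls without any single array.

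On the class I side, B2m, the light chain shared by class I molecules, rose modestly. It stood at 13.47, 13.39 and 13.52 in caAkt hearts, against 13.25, 13.07 and 13.03 in WT hearts, with no overlap. B2m had a log2 fold change of 0.35 ± 0.08 (SE, limma adjusted p = 0.0110), or 1.27-fold, and a second probe set gave 0.36. Tapbp, the tapasin that holds empty class I at the transporter, stood at 10.87, 11.00 and 10.80 in caAkt hearts, against 10.55, 10.55 and 10.63 in WT hearts. It rose by 0.31 ± 0.07 (SE, limma adjusted p = 0.0125), or 1.24-fold, and was just short of the threshold without WT replicate 2 (limma adjusted p = 0.0504) and after a repeated quantile normalization (0.0525). Its second probe set had the same value of 0.31 and was not called among all probe sets (limma adjusted p = 0.0981).

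Tap1, a subunit of the peptide transporter, was not called. Its values were 7.37, 7.57 and 7.49 in caAkt hearts, against 7.46, 7.66 and 7.73 in WT hearts, and the groups overlapped. Its log2 fold change was -0.14 ± 0.09 (SE, limma adjusted p = 0.275), with a 95% confidence interval of -0.35 to 0.06, and its 4 probe sets gave -0.03 to -0.18. Within arrays, B2m minus Tap1 was 6.10, 5.82 and 6.03 in caAkt, against 5.78, 5.41 and 5.30 in WT (log2), without overlap. Cd74 minus B2m was -1.41, -1.02 and -1.43 in caAkt, against -2.22, -2.27 and -2.25 in WT, also without overlap.

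Few of the remaining class I genes were called, and over all genes 16.1% were higher and 12.4% lower. Of 6 measured heavy chain genes, 0 were called in either direction by limma, and at an unadjusted p under 0.05 1 was higher and 1 lower. The main class I heavy chains H2-K1 and H2-D1 had log2 fold changes of 0.15 (limma adjusted p = 0.176) and 0.13 (0.229). H2-K1 stood at 12.45 to 12.65 in caAkt and 12.42 to 12.46 in WT. H2-D1 stood at 12.94 to 13.14 in caAkt and 12.92 to 12.95 in WT, so that the highest WT array lay inside the caAkt range for both. Most of their probe sets are of the _x_at kind, and a second probe set of H2-K1 was higher (0.34, limma adjusted p = 0.00958 among all probe sets). Of 7 genes for peptide loading and trimming, 1 was higher and 0 lower (2 and 3 at an unadjusted p under 0.05). After a repeated quantile normalization 1 was higher and 3 lower, and with array weights 2 were higher and 2 lower. The gene called in the fit without these changes was Pdia3, the disulfide isomerase of the loading complex, at 0.39 ± 0.10 (SE, limma adjusted p = 0.0205). Its call was lost without any of caAkt replicates 1 and 3 and WT replicates 2 and 3 (log2 fold change 0.32 to 0.48 without single arrays, limma adjusted p up to 0.0828). Without WT replicate 3, 2 genes of this list were lower, Canx (limma adjusted p = 0.00683) and Erap1 (0.0275), and without caAkt replicate 2, Tap2 was (0.0486). Tap2, the partner of Tap1, had a log2 fold change of -0.27 (limma adjusted p = 0.0606). H2-T24 was lower without WT replicate 1 (limma adjusted p = 0.0295).

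The immunoproteasome is the form of the proteasome induced by interferon-γ. Of 4 genes for it and for the proteasome activator, 1 was higher and 1 lower, against 16.1% and 12.4% of all genes. After a repeated quantile normalization 1 was higher and 2 lower. Psme1, a subunit of the proteasome activator PA28, stood at 11.43, 11.59 and 11.41 in caAkt hearts, against 12.51, 12.33 and 12.39 in WT hearts. It fell by 0.93 ± 0.08 on the log2 scale (SE, limma adjusted p = 4.14e-05), which is 1.91-fold, at its only probe set. Psmb10, a catalytic subunit, rose by 0.29 ± 0.06 (limma adjusted p = 0.00910). Psmb8 (0.08) and Psmb9 (-0.22, limma adjusted p = 0.0783), the other catalytic subunits, were not called, nor was Nlrc5, the transactivator of class I genes (-0.02, limma adjusted p = 0.927).

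Interferon-γ is the classical inducer of Ciita and of class I genes. Of 10 measured genes of its signalling list, 2 were higher and 3 lower, against 16.1% and 12.4% of all genes. Their median log2 fold change was -0.09. Ifng itself stood at 4.21 to 4.39 in caAkt and 4.33 to 4.38 in WT, within the range of the Y-linked genes. Irf8, a transcription factor of macrophages and dendritic cells, rose by 0.83 ± 0.11 (SE, limma adjusted p = 0.000515), and the receptor chain Ifngr1 by 0.48 ± 0.07 (limma adjusted p = 0.000612). The kinase Jak1 fell by 0.27 ± 0.07 (limma adjusted p = 0.0178), as did the interferon targets Irf1 (-0.21, limma adjusted p = 0.0448) and Gbp2 (-0.32, limma adjusted p = 0.0319), both named after their values had been seen. These falls were near the threshold, and 0 to 2 genes of the list were called lower in fits that leave out an array, with 0 without caAkt replicate 2 or WT replicate 1 and 1 without caAkt replicate 3 or WT replicate 2. The log2 fold changes kept their direction in those fits, at -0.31 to -0.24 for Jak1, -0.25 to -0.18 for Irf1 and -0.38 to -0.22 for Gbp2. Without caAkt replicate 1 the genes called lower were Irf1 and another interferon target, Gbp3 (limma adjusted p = 0.0395).

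Among 6 ligands of T cell costimulation and its checkpoints, 1 was higher and 1 lower, against 16.1% and 12.4% of all genes. Cd86, the costimulatory ligand for CD28, stood at 7.49, 7.38 and 7.08 in caAkt hearts, against 6.84, 6.84 and 6.88 in WT hearts, a log2 fold change of 0.46 ± 0.10 (SE, limma adjusted p = 0.00867). Cd274, which encodes the checkpoint ligand PD-L1, stood at 6.80, 6.70 and 6.64 in caAkt hearts, against 7.07, 7.29 and 7.53 in WT hearts, and fell by 0.58 ± 0.11 (limma adjusted p = 0.00404). Cd80 (0.08) and Cd40 (0.01) were not called. Without WT replicate 3, Pdcd1lg2 was lower too (limma adjusted p = 0.0281), so that 2 fell.

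**Figure D3:**
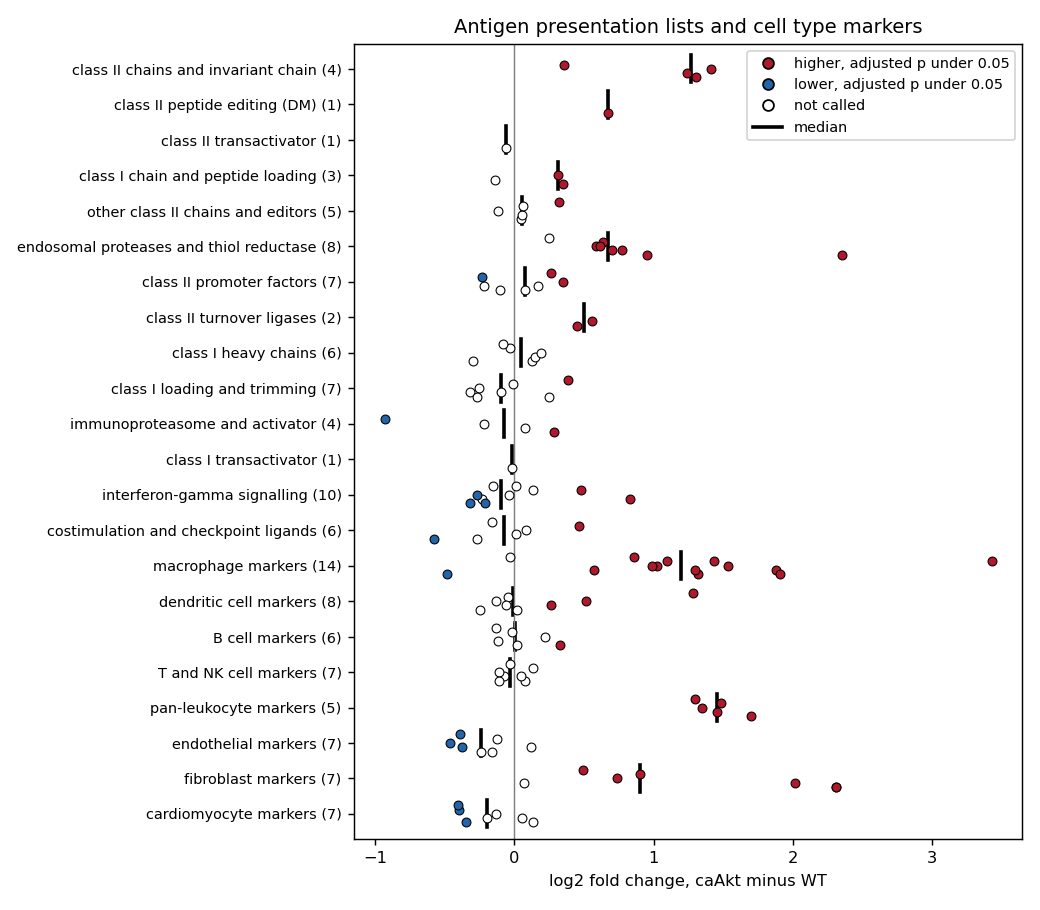
Each point is the log2 fold change (caAkt minus WT) of a measured gene, grouped by list with the number of genes in brackets, and a black bar marks the median of the list. Points of the class II chains, the endosomal genes, the macrophage markers and the pan-leukocyte markers lie mostly above 0, while those of the class I heavy chains, the B cell markers and the T and NK cell markers lie around 0.

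Leukocyte and macrophage markers were higher in the same hearts. Over all genes, 16.1% were called higher and 12.4% lower. All 5 pan-leukocyte markers rose, with a median log2 fold change of 1.45, and the mean of the list lay at 9.42 to 9.98 in caAkt arrays and 8.00 to 8.42 in WT arrays. Cd52 rose by 1.70, Cd53 by 1.45 and Laptm5 by 1.49 (limma adjusted p of 0.000163 or less). With only plain probe sets, whose names carry no suffix beyond _at, 2 of the 5 were higher. The plain probe sets of Ptprc and Coro1a were dim, at 4.27 to 4.78 in caAkt and 4.12 to 4.54 in WT, and that of Laptm5 had a log2 fold change of -0.24 that was not called (limma adjusted p = 0.371 among all probe sets). Of 14 macrophage markers, 12 were higher and 1 lower, with a median of 1.20 and a mean level of 9.75 to 10.04 in caAkt and 8.63 to 8.80 in WT. Ms4a7, a membrane protein of macrophages, rose by 3.43, the lysosomal Cd68 by 1.88 and lysozyme (Lyz2) by 1.91. Cd163, a scavenger receptor of resident macrophages, fell by 0.49 (limma adjusted p = 0.0189), a call lost without caAkt replicate 1 or WT replicate 1 (0.0715 at most). Ccr2, the receptor of recruited monocytes, had a value of -0.03 and was not called. Its probe set stood at 8.21 on every WT array and 8.10 to 8.22 in caAkt. So constant a reading limits what the lack of a call can show.

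Fewer markers of the other cell types that carry or read class II were called, and over all genes 16.1% were higher and 12.4% lower. Of 6 B cell markers, 1 was higher and 0 lower, with a median log2 fold change of 0.00 and a mean level of 6.11 to 6.18 in caAkt and 6.05 to 6.12 in WT. The one was Cd22 (0.32, limma adjusted p = 0.0159), which was not called without WT replicate 1 (limma adjusted p = 0.0528). The B cell genes Ms4a1, Cd79a and Pax5 had values of -0.13, -0.12 and 0.02. Without caAkt replicate 3, Cd79b was called as well (limma adjusted p = 0.0378). Of 7 T and NK cell markers, 0 were called by limma, also at an unadjusted p under 0.05, and their mean level was 6.62 to 6.66 in caAkt and 6.60 to 6.77 in WT. Ncr1 repeated a value of 5.69 on every caAkt array and on WT replicates 2 and 3. Cd4 repeated 7.98 on caAkt replicates 1 and 3 and WT replicate 3. Such repeated values limit what the lack of a call can show. Of 8 dendritic cell markers, 3 were higher and 0 lower (1 lower at an unadjusted p under 0.05), with a median of -0.01 and a mean level of 6.73 to 6.78 in caAkt and 6.51 to 6.60 in WT. Itgax (CD11c), which macrophages also carry, rose by 1.29, Cd209a by 0.51 and Ccr7 by 0.26 (a call lost without caAkt replicate 1 or 2 or WT replicate 1 or 2, limma adjusted p up to 0.0894), while Flt3 (-0.05), Zbtb46 (-0.13) and Xcr1 (-0.06) were not called.

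Within each array, the mean of H2-Aa, H2-Ab1 and Cd74 was set against the mean of the leukocyte markers. H2-Eb1, which changed less, was left out of this mean. The difference was 1.84, 2.48 and 2.41 (log2) in caAkt arrays, against 2.37, 2.30 and 2.47 in WT arrays, so the groups overlapped. Against the macrophage markers it was 1.78, 2.16 and 2.07 in caAkt and 1.99, 1.84 and 1.84 in WT, again with overlap. With H2-Eb1 included, the mean of the 4 genes was 10.82, 11.02 and 10.83 in caAkt, against 9.99, 9.81 and 9.63 in WT. The leukocyte mean was 9.98, 9.66 and 9.42 in caAkt, against 8.42, 8.28 and 8.00 in WT. The difference between these means was then smaller on every caAkt array than on any WT array, without overlap. Against the macrophage markers the groups still overlapped. The part of leukocytes and macrophages in the result was not tested.

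**Figure D4:**
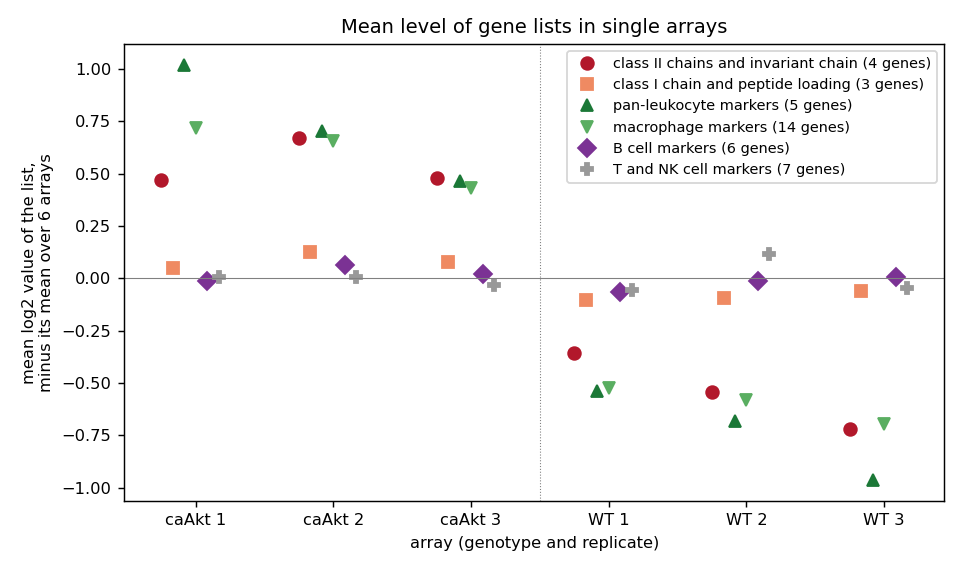
The mean log2 value of each list on each array, minus its mean over the 6 arrays, is plotted with caAkt arrays on the left and WT arrays on the right. The class II chains, the pan-leukocyte markers and the macrophage markers are above 0 on all caAkt arrays and below 0 on all WT arrays, and the B cell and T and NK cell markers stay near 0.

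The profile of H2-Aa, H2-Ab1, H2-Eb1 and Cd74 over the 6 arrays was compared with that of every other gene. After each gene was centred on its own mean, the 5 nearest genes by root mean square distance were Mtmr11 (0.0665 log2), the lysosomal β-glucuronidase Gusb (0.0706), Wfdc17 (0.0776), the membrane glycoprotein Gpm6b (0.0784) and Casp12 (0.0797). Their log2 fold changes were 0.99 to 1.14. The distance of the 4 genes to their own mean profile was 0.0980 for H2-Aa, 0.125 for Cd74, 0.176 for H2-Ab1 and 0.382 for H2-Eb1. All 5 were higher in every caAkt array than in every WT array, as were the 4 genes themselves. For the 5 genes, this and the size of their log2 fold changes follow from choosing them by distance to this profile.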

How the data were processed

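Ventricular RNA, 3 caAkt and 3 WT samples, was labelled with biotin and measured on 6 arrays, per the labels' protocols. The deposited log2 values, 1 per probe set and array, were made by the authors with RMA in the R package affy, per the submitters' processing notes; the sources used here give no versions. RMA gives all arrays nearly the same distribution, which hides any shift common to most genes. Of 45101 probe sets, 64 were controls, 34945 had 1 gene symbol in the annotation of 2016, 932 several and 9160 none. Each of 18193 genes took its probe set with the highest mean.

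Groups were fitted with limma 3.58.1 in R 4.3.3 (lmFit, eBayes, 4 residual degrees of freedom, two-sided, Benjamini-Hochberg adjustment, threshold 0.05), and the fit was tested on simulated data. The number of arrays limits the precision. Named genes were all members with every probe set, the called genes with the 3 smallest p of each list, defining genes a sentence turns on and the 5 nearest profiles. The members and lists were chosen with earlier results of these data known. Same-numbered arrays were not paired: the correlations of their deviations were 0.27, 0.03 and -0.12. Alternatives were other eBayes settings, probe set choices, a filter on dim genes, normalizations, array weights and a replicate block, each array left out in turn, and a stricter threshold (0.01). Background correction could not be varied without scanner files.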

Additional observations from a re-analysis of the deposited data

How the results depend on the processing

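The log2 fold changes of the 9 measured genes kept their direction wherever they were called. H2-Aa, H2-Ab1, Cd74 and H2-DMa were called under every alternative that could give a value, with log2 fold changes of 0.89 to 1.34, 1.30 to 1.51, 1.21 to 1.39 and 0.23 to 0.77. B2m was lost only at a threshold of 0.01, Tapbp under 3 alternatives and H2-Eb1 under 8. Ciita and Tap1 were not called under any. Of the measured genes, 3 of the 5 that have one were higher with only plain probe sets, since H2-Aa, H2-Ab1, Cd74 and B2m have none, and 4 of 9 at a threshold of 0.01. After a repeated quantile normalization 5 were higher, and 5 to 7 without single arrays, with a median log2 fold change of 0.34 to 0.45. Over all genes, 5183 were called, 9023 with all 45037 probe sets as rows and 3255 at a threshold of 0.01 (3984 to 4827 without single arrays). The split was 2929 higher and 2254 lower, but 2670 and 2710 after a repeated quantile normalization. With the replicate block, 7 measured genes were higher and 5141 genes were called in all, and it changed no call among the measured genes. Whether every sample correlates best with its own number was checked: caAkt replicate 1 did, and replicates 2 and 3 did not. Counts of calls among the promoter factors moved by over 1.5 times under up to 11 of 16 settings, among the class I loading genes under up to 9 and among the interferon-γ genes under up to 5, and the cause was not tested. The counts of calls per list under these settings were added after the data had been seen. Low signals, such as those of Ciita, limit what a lack of a call can show.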

Other observations

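The array with the highest value differed between lists. Among the 3 caAkt arrays, H2-Aa, H2-Ab1 and Cd74 were highest in replicate 2, as was H2-DMa, and H2-Eb1 in replicate 3. All 5 pan-leukocyte markers and 11 of 14 macrophage markers were highest in caAkt replicate 1. Among the WT arrays, the 4 class II and invariant chain genes were all highest in replicate 1, as were 4 of 5 pan-leukocyte and 9 of 14 macrophage markers.

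Over all genes, 16.1% were called higher and 12.4% lower, the shares beside which the counts given next stand. Fibroblast markers were higher in caAkt hearts in 6 of 7 cases and lower in 0, with a median log2 fold change of 0.90. The collagen chains Col1a1 and Col1a2 rose by 2.31 and 2.02, and the matrix protein Postn by 2.31, whereas the fibroblast transcription factor Tcf21 (0.07) was not called. Of 7 endothelial markers, 3 fell and 0 rose, with a median of -0.24. These were the receptors Kdr (-0.46) and Tek (-0.39) and the sialomucin Emcn (-0.38, a call lost without caAkt replicate 1 or 2 or WT replicate 1 or 2, limma adjusted p up to 0.0906). Of 7 cardiomyocyte markers, 3 fell and 0 rose, with a median of -0.20. Actc1 stood at 15.45 on every caAkt array, and the highest value on any array was 15.45. Signals so near the top of the range may understate a change. Tnni3 fell by 0.35 and the calcium pump regulator Pln by 0.40, and Ryr2, the calcium release channel, by 0.41, a call lost without caAkt replicate 2 or 3 or WT replicate 1 or 2 (limma adjusted p up to 0.156).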
